A study of Mus musculus with 16 samples.

Results

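Ica1, Ica1l, Pick1, Ptprn and Ptprn2 encode proteins of the membranes around dense-core secretory granules, and several of them are targets of autoantibodies in type 1 diabetes. Their transcripts were followed here in pancreatic islets of mice in which the endocrine zinc finger factor Insm1 was targeted for deletion in beta cells. These 5 genes, of 18193 with a probe set of their own on the array, were chosen by gene family and by an earlier result of the same arrays. Ica1l had been seen among the 12 largest falls in the mutant, so its own difference between the groups chose it and is given as a description with no test. The other 4 were taken as its relatives, its partner and the other granule autoantigens. Each gene is given by its brightest probe set over all 16 arrays, and the remaining 3 of their 8 probe sets are given beside it.

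The mutants had the genotype RIPcreER with 1 floxed and 1 lacZ allele of Insm1 (8 animals), and the controls had RIPcreER with 1 floxed and 1 wild-type allele (8 animals, litter-matched by the series text). RIPcreER is a tamoxifen-inducible recombinase driven by the rat insulin promoter, so recombination was directed at beta cells, whereas the lacZ allele was present in every cell of the mutant. Controls carried the recombinase and the floxed allele too and were treated alike, so they are not islets with intact Insm1. All animals received 25 mg of tamoxifen, released over 21 days, at 4 to 5 weeks of age, and their islets were collected at 8 to 12 weeks. They had a mixed background of CBA/J, 129/ola and C57BL/6. One Affymetrix mouse expression array was run per preparation. Values are the authors' deposited log2 signals, differences are mutant minus control, and a gene was called when limma's p, adjusted by the Benjamini-Hochberg method over all 18193 genes, was under 0.05. The number of arrays limits the precision. Signals of 2 probe sets are not comparable as levels, because each binds with its own strength.

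The arrays had medians of 6.29 to 6.35. The hormone genes that define islets were near the top of the scale, with Ins2 at 15.37 in mutants and 15.36 in controls, and Gcg at 15.07 in mutants and 15.00 in controls. Insm1 itself averaged 11.02 ± 0.22 in mutants and 11.26 ± 0.23 in controls (SD, n = 8 each), a difference of −0.25 ± 0.11 (SE, limma adjusted p = 0.182). The place of its probes relative to the deleted stretch is not given in the sources, and this signal does not check the genotypes. The mean signal of 7 measured beta cell markers was 12.53 to 12.86 in mutants, under the 13.13 to 13.32 of controls. That of 5 alpha cell markers was 11.06 to 11.56 in mutants and 10.47 to 10.87 in controls. Acinar markers, from exocrine tissue attached to islets, had a mean of 8.68 to 13.19 in mutants and 11.60 to 13.67 in controls, lower in the mutant in 8 of 8 pairs of equal replicate number. Immune cell markers lay at 6.90 to 8.64 in mutants and 6.94 to 8.02 in controls. The markers of a list did not all change. Called lower were 5 of 7 beta cell, 1 of 10 acinar, 1 of 5 duct cell and 1 of 8 stromal markers. Called higher were 3 of 5 alpha cell, 1 of 4 delta and PP cell and 2 of 8 stromal markers. Beside these, limma called 4.66% of all genes lower and 4.1% higher. Gcg was not among those called, and 0 of 12 immune cell markers were. In bulk islets, fewer cells of a type and less RNA per cell cannot be told apart, and the part of these markers in the results that follow was not tested. Fits with the acinar or immune mean as a covariate are given as other settings, and none used the beta or alpha cell mean. The acinar mean itself differed between the groups by −1.44, so a fit with it cannot separate genotype from acinar signal.

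Ica1 (islet cell autoantigen 1) has a BAR domain, a fold that binds curved membranes, and pairs with Pick1, which joins a BAR domain to a PDZ domain. The Ica1 and Pick1 pair acts on membranes that leave the Golgi and become insulin granules. Ica1l is the paralog of Ica1 and has the same type of BAR domain. Ptprn and Ptprn2 (also called phogrin) cross the granule membrane as receptor-type tyrosine phosphatases whose enzyme part has lost most or all of its activity toward protein tyrosine, and both help to set how much hormone is stored.

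Ica1l was the member with the large difference. Its signal in mutant islets was 4.40 at the lowest, 4.67 at the median and 5.57 at the highest. In control islets it was 5.59 at the lowest, 6.71 at the median and 7.95 at the highest. All 8 mutant arrays therefore lay under the lowest control array, although the highest mutant and the lowest control were close. The means were 4.78 ± 0.38 in mutants and 6.75 ± 0.69 in controls (SD, n = 8 each), a difference of −1.97 ± 0.26 (SE). The mutant array was lower in 8 of 8 pairs, with pair differences of −3.54 to −0.90 and a median of −1.78. These values describe the difference that chose the gene.

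The spread of Ica1l between control animals was itself wide. Its control SD was at the 98.6th percentile of all genes. Mutant replicate 1 had the lowest Ica1l signal of all arrays and mutant replicate 3 the highest among mutants. Control replicate 1 was the highest and control replicate 5 the lowest among controls, and the pairs with these 2 numbers gave the widest and the narrowest gap. The mutant mean stood at percentile 15.2 of all genes, below the lowest array median of 6.29, where array signals are compressed by background, and the control mean at percentile 42.1. The log2 difference there is thus no measure of how much transcript was left. Ica1l had 1 probe set of its own, so no other set was at hand to compare it with. The immune marker mean of the mutants was highest in replicates 1 to 3. Without these pairs Ica1l differed by −1.77, and with the acinar marker mean as a covariate by −1.86.

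**Figure D1:**
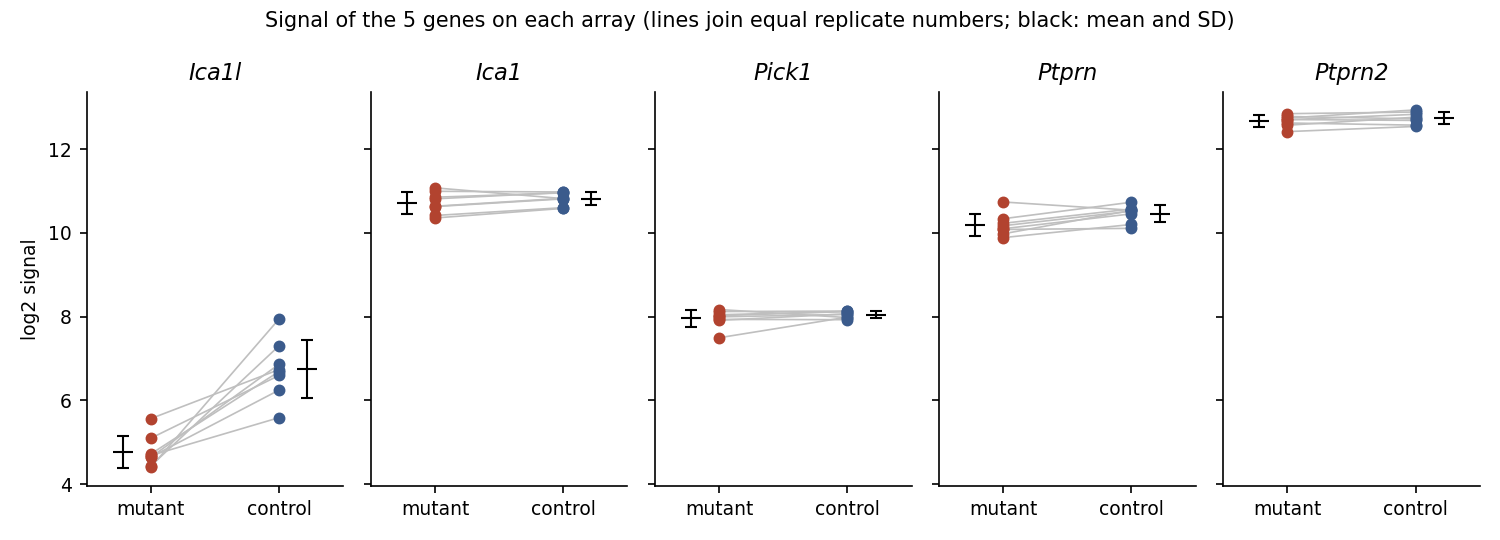
Log2 signal (vertical axis) of the 5 genes on each array, with mutants at the left and controls at the right of each panel, lines between equal replicate numbers, and the mean with its SD in black (n = 8 each). All 8 Ica1l values of mutants lie under those of controls, while the groups overlap for Ica1, Pick1, Ptprn and Ptprn2; heights in different panels are not comparable, since each probe set binds with its own strength.

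Ica1 and Ica1l are related in protein but the 250 bases before their transcription starts differ in composition. They are shown because these genes are paralogs of which 1 was lower in the mutant and the other was not called. The stretch before Ica1l holds 80.4% G or C, the 98.9th percentile of 32851 such stretches in RefSeq, and 45 CpG dinucleotides against a median of 6. The stretch before Ica1 holds 49.6% G or C and 9 CpG. Each is printed 5′ to 3′ on the strand of the gene, from RefSeq on GRCm38.p6, with E-boxes (CANNTG, the type of element bound by Neurod1 and other basic helix-loop-helix factors) in capitals.
Ica1l, chr1:60043123-60043372, minus strand: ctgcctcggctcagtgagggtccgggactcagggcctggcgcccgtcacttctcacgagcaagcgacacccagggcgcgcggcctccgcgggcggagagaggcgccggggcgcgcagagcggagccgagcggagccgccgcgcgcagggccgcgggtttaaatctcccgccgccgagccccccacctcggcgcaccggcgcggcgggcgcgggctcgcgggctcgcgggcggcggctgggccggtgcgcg
Ica1, chr6:8778485-8778734, minus strand: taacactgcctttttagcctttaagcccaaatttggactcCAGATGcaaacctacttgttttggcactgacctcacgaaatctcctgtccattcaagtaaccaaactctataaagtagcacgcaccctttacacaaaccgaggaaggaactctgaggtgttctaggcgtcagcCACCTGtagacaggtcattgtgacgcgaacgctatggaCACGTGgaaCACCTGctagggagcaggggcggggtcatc
No CANNTG occurred in the stretch of Ica1l and 4 occurred in that of Ica1, at 210, 77, 39 and 30 bases before the start. CANNTG was present in 66.2% of the 32851 stretches, with a mean of 1.16 matches each, so its presence is common. Neither stretch held TGTTTAC, a forkhead motif of the kind bound by Foxa2 (3.17% of stretches), or AGGGGGC, taken as a core of the Insm1 motif (9.43%). All 3 were searched on both strands, a match is a description only, and Ica1 has 2 starts in the table, 1 of them shown.

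Of the 4 members that were tested, limma called 0 in the fit without pairs. Of all genes it called 8.76%, 4.1% higher and 4.66% lower in the mutant. In that fit 1 of the 4 members, Ptprn, had an unadjusted p under 0.05. With the replicate number as a block, 1 of the 4 was called, also Ptprn, beside 17.6% of all genes. Ica1, the paralog of Ica1l, was not called in either fit (limma adjusted p = 0.278 with the block). Its signal was 10.36, 10.72 and 11.08 in mutants and 10.59, 10.82 and 10.98 in controls (lowest, median and highest). The mutant range enclosed the control range, and 2 of 8 mutants lay under the lowest control. The means were 10.72 ± 0.26 in mutants and 10.82 ± 0.15 in controls, a difference of −0.10 ± 0.10 (limma adjusted p = 0.655; 95% interval −0.31 to 0.12, lower in 6 of 8 pairs). Its other probe set averaged 9.35 ± 0.34 in mutants and 9.41 ± 0.14 in controls and also differed by less than its error, −0.06 ± 0.12 (limma adjusted p = 0.831 over probe sets). With the acinar marker mean as a covariate the difference of Ica1 was −0.29 ± 0.08 and was called (limma adjusted p = 0.0275), and it was −0.04 with the immune marker mean instead. Because the acinar mean itself differed between the groups, the call with that covariate cannot be ascribed to genotype apart from acinar signal.

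The per-array gap of Ica1l to Ica1 averaged −5.95 ± 0.48 in mutants and −4.07 ± 0.79 in controls. The mutant minus control difference of this gap was −1.88, with the mutant lower in 8 of 8 pairs. It is given without a test because Ica1l was chosen for its difference.

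Pick1, the partner of Ica1, did not pass the test either. Its signal was 7.50, 8.01 and 8.17 in mutants and 7.93, 8.06 and 8.13 in controls (lowest, median and highest). One array, mutant replicate 1, set the low end, and the other 7 mutants were at 7.91 or above. The means were 7.96 ± 0.21 in mutants and 8.05 ± 0.08 in controls, a difference of −0.09 ± 0.08 (limma adjusted p = 0.594; 95% interval −0.25 to 0.08, lower in 6 of 8 pairs). A dim second probe set of Pick1 read 4.20 ± 0.15 in mutants and 4.17 ± 0.12 in controls (limma adjusted p = 0.890 over probe sets). The gap between Pick1 and Ica1 changed by 0.01 (exact permutation p = 0.902, two-sided, the same after adjustment over 2 such tests), so no unequal change of the 2 partners was detected.

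Ptprn was the member whose call depended on the pairing. Its signal was 9.89, 10.13 and 10.74 in mutants and 10.11, 10.53 and 10.73 in controls (lowest, median and highest). The groups overlapped over most of their range, with 4 of 8 mutants under the lowest control and mutant replicate 8 above every control. The means were 10.19 ± 0.26 in mutants and 10.46 ± 0.20 in controls, a difference of −0.27 ± 0.11 that was not called (limma adjusted p = 0.160; 95% interval −0.50 to −0.03). With the replicate number as a block the error was 0.07 and Ptprn was called (limma adjusted p = 0.0294), lower in 7 of 8 pairs.

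The paired fit called more genes in general. Of all genes, 17.6% were called with the block and 9.71% were called lower, against 8.76% called without it, 4.1% higher and 4.66% lower. The paired difference lost its call when pair 1, 2, 3, 5, 6 or 7 was left out (limma adjusted p of 0.0645 to 0.0693). These fits had fewer arrays. Over all pairs left out in turn it was −0.334 to −0.226, with a limma adjusted p as low as 0.00424. Without pairs 1 to 3 together the paired difference was −0.17 (limma adjusted p = 0.291). In the unpaired fit, leaving out mutant replicate 8 gave −0.35 and a call (limma adjusted p = 0.0245). The 3′ minus 5′ gap of control probe sets for beta-actin and Gapdh, a measure of RNA integrity, was 0.28 to 0.47 in mutants and 0.33 to 0.57 in controls, lower in the mutant in 8 of 8 pairs by a mean of −0.08. With that gap as a covariate the difference of Ptprn was −0.16 (limma adjusted p = 0.554). With the mean of Y-linked genes as the covariate instead, it was −0.35 (limma adjusted p = 0.0543).

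The stretch before Ptprn is shown because it was the only one of the 5 with a match to AGGGGGC. That match lies 137 to 131 bases before the start, and 1 E-box lies 64 to 59 bases before it, and both are in capitals.
Ptprn, chr1:75264209-75264458, minus strand: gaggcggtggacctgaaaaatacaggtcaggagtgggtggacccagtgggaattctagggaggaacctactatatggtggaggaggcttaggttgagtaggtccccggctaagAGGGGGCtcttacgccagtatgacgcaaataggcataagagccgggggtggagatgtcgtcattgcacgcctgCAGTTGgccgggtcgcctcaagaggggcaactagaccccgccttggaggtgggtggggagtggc
The stretch holds 59.2% G or C and 10 CpG, and is 1 of 2 starts of Ptprn in the table. As AGGGGGC is found in 9.43% of all such stretches, 1 match among 5 is no measure of binding. The stretch before Ptprn2 held 1 E-box and that before Pick1 none.

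Ptprn2, the close relative of Ptprn, had signals of 12.42, 12.70 and 12.85 in mutants and 12.54, 12.74 and 12.94 in controls (lowest, median and highest). These ranges overlapped almost fully, and only 1 mutant lay under the lowest control. The means were 12.67 ± 0.13 in mutants and 12.74 ± 0.14 in controls, a difference of −0.07 ± 0.07 (limma adjusted p = 0.635; 95% interval −0.21 to 0.08). A dimmer probe set of the same gene read 6.34 ± 0.10 in mutants and 6.36 ± 0.15 in controls (limma adjusted p = 0.893 over probe sets).

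Whether Ptprn moved apart from Ptprn2 was tested on their gap per array. Ptprn2 minus Ptprn averaged 2.48 ± 0.30 in mutants and 2.28 ± 0.31 in controls, a difference of 0.20 that was above 0 in 6 of 8 pairs. An exact permutation test over all 12870 assignments gave p = 0.204 (two-sided, adjusted p = 0.407), and the exact sign-flip test within pairs gave p = 0.102 (adjusted p = 0.203). The effects on the 2 phosphatase genes were thus not shown to differ, and the smallest p these tests could give was 0.0001554 and 0.0078125.

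**Figure D2:**
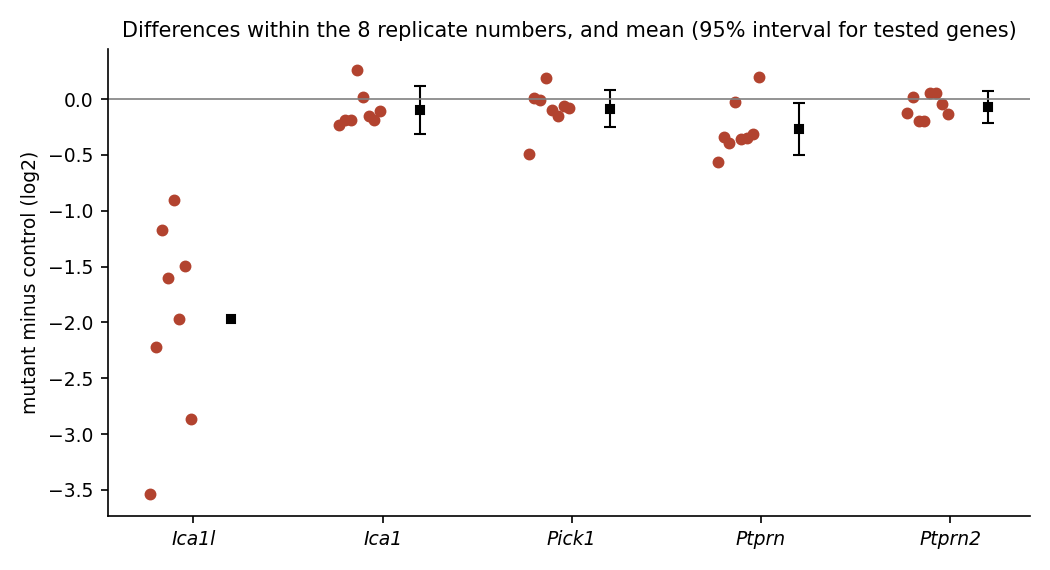
Difference of each mutant array from the control array of equal replicate number (points, log2 scale, n = 8) and the mean difference (squares) for the 5 genes, with its 95% interval from the limma fit for the 4 that were tested. All Ica1l points lie between −3.54 and −0.90, whereas the points of the other 4 genes lie on both sides of 0.

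Arrays of equal group were also compared among the members. In 20 correlations between pairs of members within a group of 8 arrays, none passed an exact permutation test after adjustment (lowest adjusted p = 0.373). The highest were between Ica1 and Pick1, with r = 0.69 in mutants (exact permutation p = 0.0373, rho = 0.64, permutation p = 0.0962) and r = 0.77 in controls (exact permutation p = 0.0284, rho = 0.48, permutation p = 0.243). Without the 2 arrays of each group farthest from its median Ica1 signal, the coefficients were 0.17 in mutants and 0.43 in controls. That step narrows the range of Ica1 and leaves fewer arrays, so it cannot show whether the correlations rest on those arrays.

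With the group means taken off, the genes whose signal was most like that of each member over the 16 arrays were found by Pearson's r, as a description. For Ica1l these were Lhfpl3 (0.81), Dpp7 (0.79) and Lamtor5 (0.78), none of them called between the groups. Ica1 was closest to Ascc3 (0.92, itself lower in the mutant by −0.29, limma adjusted p = 0.0338), Rab25 (0.91) and Manf (0.90), an endoplasmic reticulum stress protein. Pick1 was closest to Hcn2 (0.94), Lsr (0.88) and Txndc11 (0.87). Ptprn was closest to G730013B05Rik (0.91), Slc12a9 (0.91) and Gpaa1 (0.90), and Ptprn2 to Tmem231 (0.90), Tes (0.89, itself higher in the mutant by 0.44, adjusted p = 0.00846) and Maneal (0.89). The median r of all genes lay between 0.02 and 0.09 for the 5 members. Genes on the same array share its hybridisation and the tissue carried over, so no shared control is read from these values.

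Ica1l and Ptprn lie on chromosome 1, Ica1 on 6, Ptprn2 on 12 and Pick1 on 15. Of the 5 measured genes on each side of a member, 1 of 10 was called in each case, close to the 8.76% of all genes. Next to Ica1l on chromosome 1, Wdr12, a ribosome biogenesis factor, averaged 8.20 ± 0.23 in mutants and 8.75 ± 0.17 in controls, a difference of −0.55 ± 0.10 (limma adjusted p = 0.00144). Resp18, a granule protein related to the luminal part of Ptprn and its direct neighbour, differed by −0.08 ± 0.07 (limma adjusted p = 0.591).

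Among other proteins that autoantibodies or T cells recognise in type 1 diabetes, those that changed were lower in the mutant. Of 15 listed, 13 were measured, and 3 fell and 0 rose (23.1% called against 8.76% of all genes, median difference −0.05 against −0.01 over all genes). No member of the list rose at an unadjusted limma p under 0.05 either. Gad1, which makes GABA from glutamate, averaged 10.19 in mutants and 11.29 in controls and was 2.15-fold lower (−1.10 ± 0.23, limma adjusted p = 0.00453), and its second probe set was also called lower. Slc30a8, the granule zinc transporter, averaged 12.82 in mutants and 13.15 in controls (−0.34 ± 0.06, limma adjusted p = 0.000764). G6pc2, the islet glucose-6-phosphatase, averaged 13.62 in mutants and 13.94 in controls (−0.33 ± 0.05, limma adjusted p = 0.000857). The 3 were lower in 8 of 8 pairs, and the mutant and control ranges of Slc30a8 and of G6pc2 did not overlap. G6pc2 is also one of the beta cell markers used above. Ins2 and Iapp differed by 0.01 each near the upper limit of the array, where differences are compressed, Chga by −0.10 and Gad2 by 0.07, none called. Gad2 averaged 5.01 in mutants and 4.94 in controls, under the lowest array median of 6.29, where signals are compressed by background. This list and those that follow were chosen with earlier results of these data known, so their shares called are descriptions only.

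The machinery that forms dense-core vesicles, to which Ica1 and Pick1 belong by function, had 1 called gene. Of 14 listed and measured genes, 1 fell and 0 rose (7.14% called, close to the 8.76% of all genes, median difference −0.10), and at an unadjusted limma p under 0.05, 3 were lower and 0 higher. Vps50, a subunit of the endosome recycling complex that sorts vesicle cargo, averaged 8.67 in mutants and 9.04 in controls (−0.38 ± 0.08, limma adjusted p = 0.00859) and was lower in 8 of 8 pairs. Its second probe set was not called, and the mean of both differed by −0.26 and was called (limma adjusted p = 0.0296). Arfip1 and Arfip2, BAR-domain proteins of the same Golgi step as Ica1, differed by −0.15 and −0.08, and Rab2a, a small GTPase whose product binds Ica1, by −0.11. None of these 3 was called by its brightest probe set, although 1 of the 6 other probe sets of Rab2a was called lower. With the replicate block 3 of the 14 were called, all lower, beside 17.6% of all genes in that fit. With the acinar mean as a covariate 6 were called, all lower, beside 2034 of all 18193 genes.

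The binding partners of Pick1 moved in both directions. All 12 were measured, and 3 rose and 3 fell (50% called, beside 8.76% of all genes, 4.1% higher and 4.66% lower; median difference 0.03). As the list was chosen with earlier results of these data known, this share is a description only. Gria2 and Gria3, the AMPA receptor subunits whose tails Pick1 binds, rose, Gria2 to 9.71 in mutants against 8.86 in controls (0.85 ± 0.16, limma adjusted p = 0.0023) and Gria3 to 9.06 in mutants against 7.99 in controls (1.07 ± 0.26, adjusted p = 0.0144). Asic1, an acid-sensing ion channel, fell to 8.48 in mutants against 9.14 in controls (−0.67 ± 0.13, limma adjusted p = 0.00375). Grip1, a PDZ scaffold of the same receptor subunits, fell to 7.42 in mutants against 7.86 in controls (−0.44 ± 0.11, limma adjusted p = 0.014). These 4 moved the same way in 8 of 8 pairs. The other 2 called genes, named after their values were seen, were Asic2 (0.74 ± 0.22) and Prkca, a protein kinase C (−0.36 ± 0.11). Without pairs 1 to 3, and likewise with the 3′ minus 5′ covariate, 2 of the 12 were called, Gria2 and Asic1. Without those pairs, and so with fewer arrays, Gria3 differed by 1.12 and Grip1 by −0.46, as much as with all arrays. With the covariate they differed by 0.72 and −0.30.

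Of the genes related to Ptprn or known to bind its protein, 10 of 11 were measured, and 2 fell and 0 rose (20% called, beside 8.76% of all genes; median −0.04), with 1 higher at an unadjusted limma p under 0.05. Pias4, a SUMO ligase, averaged 7.61 in mutants and 7.83 in controls (−0.22 ± 0.05, limma adjusted p = 0.00679). None of its other probe sets was called, and the mean of all its probe sets, the brightest included, differed by −0.14 and was called. Sptbn4, a spectrin, averaged 9.10 in mutants and 9.42 in controls (−0.32 ± 0.09, limma adjusted p = 0.0416), and it was not called once mutant replicate 1, 2, 3, 6 or 8, or control replicate 1, 2, 4, 5 or 7, was taken out, with a limma adjusted p as high as 0.081. Without pairs 1 to 3 its difference was −0.20.

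Other receptor-type tyrosine phosphatases, of which 16 of 19 were measured, had 2 rises and 2 falls (25% called, beside 8.76% of all genes; median 0.13). Ptprk, a phosphatase of cell contacts, had 9.05 to 9.42 in mutants and 7.21 to 7.82 in controls, with no overlap. It was 3.43-fold higher in the mutant (1.78 ± 0.08, limma adjusted p = 3.31e-10), and 5 of its other 6 probe sets were called the same way. Ptprd rose by 0.74 ± 0.18 (limma adjusted p = 0.0124), with 8.69 in mutants and 7.95 in controls. Of its 6 other probe sets 3 were called higher, and the mean of all its probe sets differed by 0.32 (adjusted p = 0.0329). Ptprm, a relative of Ptprk, averaged 8.38 in mutants and 9.07 in controls (−0.69 ± 0.10, limma adjusted p = 0.000295), and Ptprr averaged 7.21 in mutants and 7.98 in controls (−0.77 ± 0.18, adjusted p = 0.00917). Without pairs 1 to 3, with fewer arrays, Ptprd (0.77) and Ptprr (−0.66) were not called. With the 3′ minus 5′ covariate they were not called either, at 0.58 for Ptprd and −0.56 for Ptprr. With the acinar covariate Ptprd was at 0.64 and not called (limma adjusted p = 0.0571).

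BAR-domain proteins other than the members were measured for 29 of 32 genes, and 5 rose and 4 fell (31% called, beside 8.76% of all genes; median −0.01). Snx18, a sorting nexin, averaged 10.13 in mutants and 9.34 in controls (0.79 ± 0.08, limma adjusted p = 8.29e-06), and its relative Snx33 averaged 7.50 in mutants and 7.05 in controls (0.45 ± 0.07, adjusted p = 0.000408). Sh3glb1, an endophilin, averaged 10.56 in mutants and 10.88 in controls (−0.31 ± 0.05, limma adjusted p = 0.00069). With the mean of all its probe sets the difference of Sh3glb1 was −0.10 and was not called (adjusted p = 0.161). Snx30 averaged 8.78 in mutants and 9.15 in controls (−0.37 ± 0.08, limma adjusted p = 0.00623). These 4 went the same way in 8 of 8 pairs, and 5 of the 29 genes were called without pairs 1 to 3, where 828 of all genes were.

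**Figure D3:**
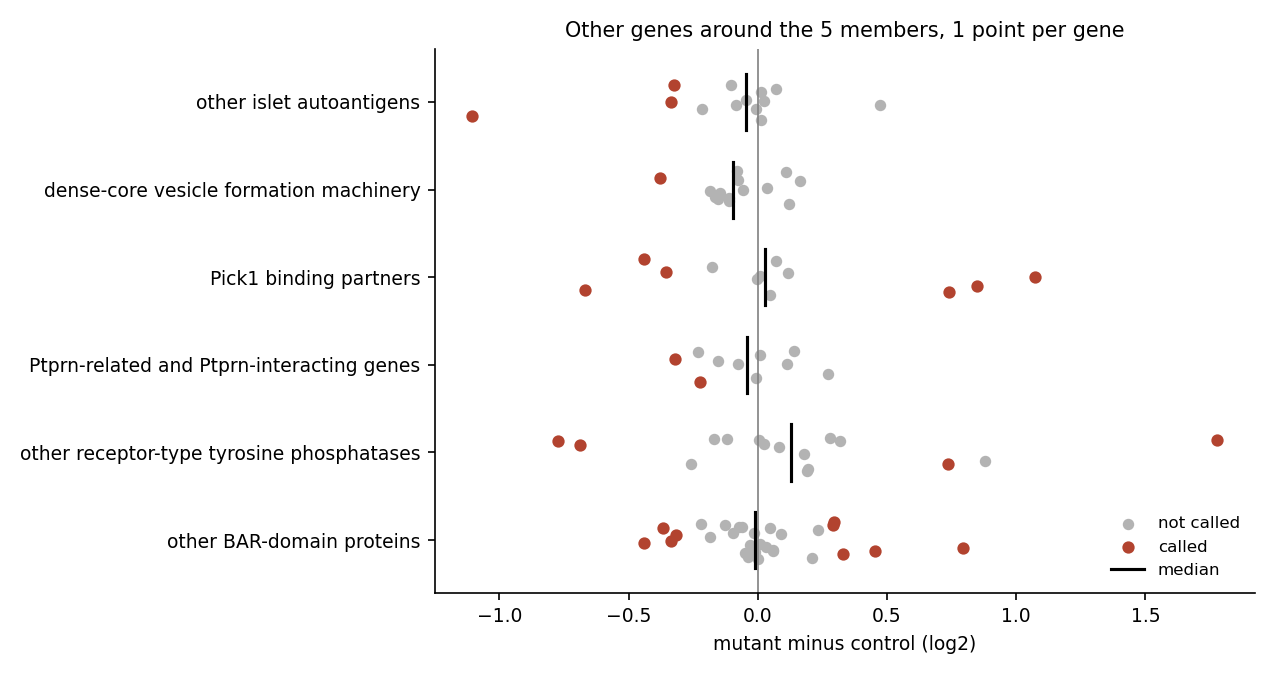
Mutant minus control difference (log2, horizontal axis) of each measured gene of the 6 lists, 1 point per gene, red where called at a limma adjusted p under 0.05 and grey otherwise, with the list median as a black bar. Medians lie between −0.10 and 0.13, with Gad1 at −1.10 and Ptprk at 1.78 at the ends.

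**Figure D4:**
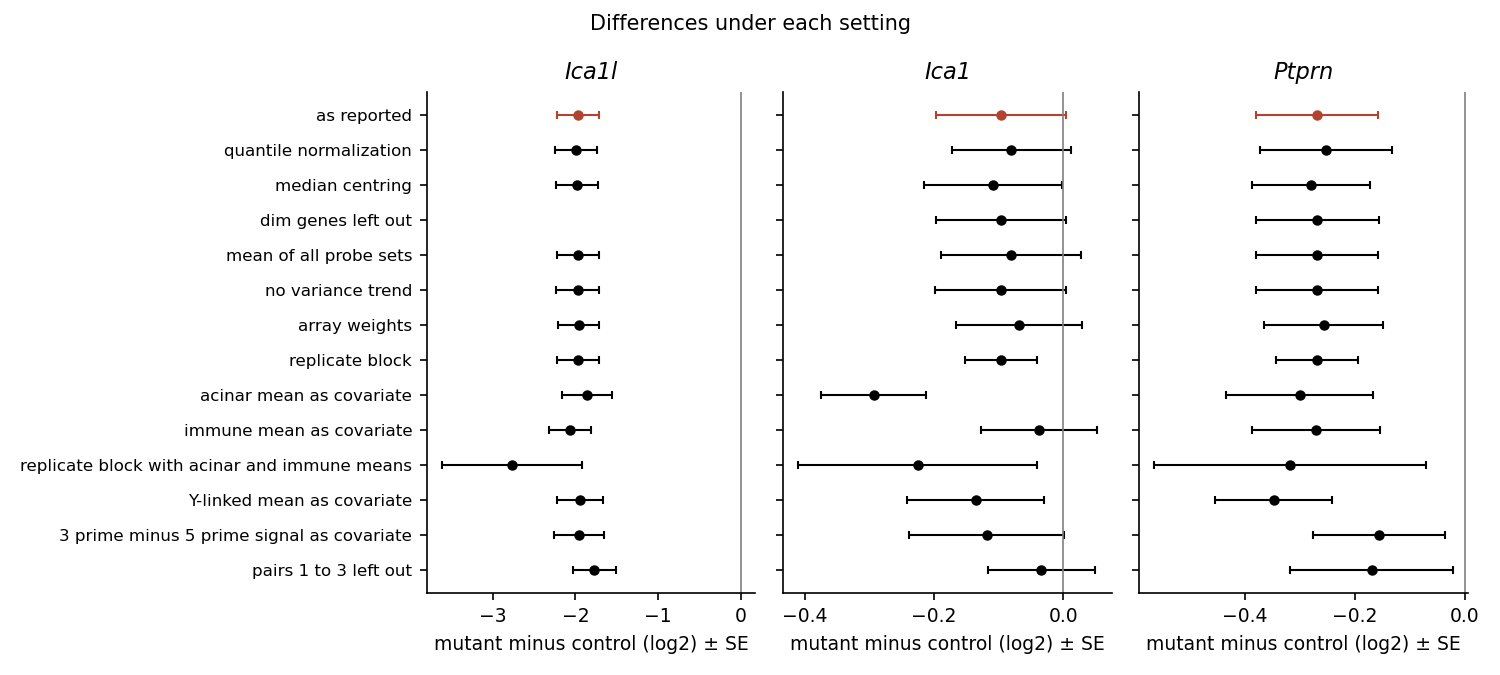
Mutant minus control difference (log2) ± SE of Ica1l, Ica1 and Ptprn as reported (red) and under 13 other settings (black), with a separate horizontal scale per gene. Ica1l stays between −2.77 and −1.77 (it has no value where dim genes were left out), Ica1 is at −0.29 with the acinar covariate, and Ptprn is nearest to 0 with the 3′ minus 5′ covariate.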

How the data were processed

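RNA from isolated islets was labelled for Affymetrix mouse expression arrays, per the labels' protocols. The authors deposited 1 log2 signal per probe set. The log base is read from the values (highest 15.39), and the background correction and normalisation behind them are not given in the sources used here. No further scaling was applied. Of 45101 probe sets, 64 controls were left out, 34945 named 1 gene, 932 several and 9160 none. For the 34741 whose gene was found in RefSeq GRCm38.p6, the symbol was taken from there, whether or not it differed. All 18193 genes were fitted with limma 3.58.1 in R 4.3.3 (lmFit, eBayes with a trend, genotype as the only term, two-sided). Replicate numbers of the titles were taken as pairs: deviations from group means correlated in all 8 pairs (0.237 to 0.735; other numbers had a median of −0.10), and the series text calls the controls litter-matched. Nothing else says how the samples were paired.

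The members, the gene lists and the marker lists were chosen with earlier results of these data known. Genes named are the members, up to 4 called genes per list by lowest adjusted p, 3 genes most like each member, and Insm1; exceptions are said in the text. Wdr12 and Resp18 were named as neighbours, and single uncalled list genes for their roles, after their values were seen. Steps were tested on simulated data. Alternatives were other normalisations, a filter on dim genes, averaged probe sets, no trend, array weights, the replicate block, marker or 3′ minus 5′ covariates, and leaving out pairs 1 to 3 or each array. Leaving out pairs in the paired fit of Ptprn was added after the data were seen. Promoter stretches come from RefSeq on GRCm38.p6. Protein sequences and probe positions were not used here.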

Additional observations from a re-analysis of the deposited data

Results flagged for a closer look

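Pick1 on mutant replicate 1 stood apart from the other mutants. Its log2 signal was 7.50, and the next lowest mutant was at 7.91, a gap of 0.618 of the group's range, above Dixon's 95% critical value for 8 samples. It was the only one among 46 groups of values examined. Chance gives about 1 in 20 such groups, so 1 among 46 is not more than chance would give. The same array held the lowest Ica1l, Ica1 and Ptprn2 signal among mutants. It also had the highest acinar (13.19) and immune (8.64) marker means and the lowest beta cell marker mean (12.53) of the mutants. The part of these in the Pick1 value was not tested.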

How the results depend on the processing

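Ica1l was lower in the mutant in every setting that gave a value, at −2.06 to −1.77 in 11 of them and −2.14 to −1.80 with each array left out. As Ica1l was chosen for this difference and the settings reuse the same arrays, these values are a description and no support. Its difference was −2.77 ± 0.85 (SE) with the replicate block and the acinar and immune means together, and had no value where dim genes were left out. That fit with both means has few residual degrees of freedom and called 9 of all genes, against 1594 as reported, 3200 with the block and 828 without pairs 1 to 3. Ica1 was called with the acinar mean (−0.29) and Ptprn with the replicate block (−0.27, also over probe sets). The block changed no other member's call. Leaving out an array gave Ptprn −0.346 to −0.225, and its paired fit −0.334 to −0.226, or −0.17 without pairs 1 to 3. Pick1 and Ptprn2 were not called in any setting run. With the block and both means, limma called 0 other autoantigens (2 at an unadjusted p under 0.05), 0 vesicle formation genes (2), 0 Pick1 partners (3), 0 Ptprn-related genes (0), 0 BAR-domain genes (3) and 1 receptor phosphatase. Vesicle formation genes called were 2 with quantile normalisation or without dim genes, 3 with the block and 6 with the acinar mean, against 1 as reported (1 to 3 with an array left out). Ptprn-related genes called were 1 with array weights, the acinar, immune or Y-linked mean or without pairs 1 to 3, against 2 (1 to 2 with an array left out). Pick1 partners were 2 and receptor phosphatases 2 both with the 3′ minus 5′ covariate and without pairs 1 to 3, and BAR-domain genes 5 without those pairs. Of all genes, 1669 were called with quantile normalisation, 1618 without dim genes and 1679 with array weights. With covariates the totals were 2034 (acinar), 1667 (immune), 1549 (Y-linked) and 1064 (3′ minus 5′), and 1324 to 1645 with an array left out. The cause of these shifts was not tested. Signals under the array medians are compressed by background, which limits Ica1l in mutants, the second probe set of Pick1, and Gad2.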
